A study of Mus musculus with 16 samples.

Results

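The levels of 9 genes that mark mast cells were followed in ear skin of ageing mice. They were taken by name as Mcpt4, Cpa3, Cma1, Tpsb2, Tpsab1, Kit, Fcer1a, Ms4a2 and Hdc, each of which had 1 row among the 45706 gene rows of the table of read counts, and all 9 were among the 21526 genes that passed the filter on low counts. RNA sequencing had been run on ear clips of 8 C57Bl/6J mice. Each male was clipped at an age of 23.8 to 24.4 months, which the labels call young, and again in the other ear at 29.0 to 30.1 months, which they call old. The 16 libraries therefore form 8 pairs, 1 per mouse, with no treatment and no altered genotype. The paired libraries of a mouse always came from opposite ears, so age and the second ear cannot be told apart, and only mice that lived to the second clip are in the comparison.

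Mast cells are long-lived tissue immune cells that settle in the dermis around vessels and nerves. They depend on the receptor tyrosine kinase KIT, bind IgE through a high-affinity receptor, and when that receptor is crosslinked they release granules filled with proteases, histamine and heparin. Connective tissue mast cells of mouse skin express the chymase genes Mcpt4 and Cma1, the tryptase genes Tpsb2 and Tpsab1 and the carboxypeptidase gene Cpa3. Only RNA was measured here, which does not show that a working protein is made. Fcer1a and Ms4a2 encode the alpha and beta chains of the IgE receptor, and Hdc encodes the decarboxylase that makes histamine. KIT is also found on melanocytes and the IgE receptor on basophils, so these genes are less specific than the granule proteases.

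The genes lie on 7 chromosomes of GRCm38. The chymase genes Cma1 (chr14:55941451-55944675) and Mcpt4 (chr14:56059629-56062313) lie close together on the minus strand of chromosome 14, and the tryptase genes Tpsab1 (chr17:25343245-25345562, minus strand) and Tpsb2 (chr17:25366305-25369098, plus strand) lie close together on chromosome 17. The remaining genes are Cpa3 (chr3:20215620-20242181), Kit (chr5:75574916-75656722), Fcer1a (chr1:173221284-173227214), Ms4a2 (chr19:11615523-11623719) and Hdc (chr2:126593667-126619299). RefSeq promoter windows on GRCm38.p6 were at hand for 7 of the 9 genes. Windows of 246 bases, from 250 to 5 bases before the annotated start, are shown for the carboxypeptidase and the IgE receptor beta chain, whose changes followed the same order of mice, and for both chymases, whose ratio was lower at 30 months in every mouse. Capitals mark the letters AGATAA or TGATAA on either strand (TTATCT or TTATCA when read on the other strand), forms of the motif bound by GATA factors, a family that includes the mast cell regulators GATA1 and GATA2.
Cpa3 (chr3:20242186-20242431, minus strand): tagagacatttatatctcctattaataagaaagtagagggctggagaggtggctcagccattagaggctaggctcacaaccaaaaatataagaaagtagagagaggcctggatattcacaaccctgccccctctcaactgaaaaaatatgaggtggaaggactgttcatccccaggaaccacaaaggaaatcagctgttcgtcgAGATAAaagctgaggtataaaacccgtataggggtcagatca
Ms4a2 (chr19:11623724-11623969, minus strand): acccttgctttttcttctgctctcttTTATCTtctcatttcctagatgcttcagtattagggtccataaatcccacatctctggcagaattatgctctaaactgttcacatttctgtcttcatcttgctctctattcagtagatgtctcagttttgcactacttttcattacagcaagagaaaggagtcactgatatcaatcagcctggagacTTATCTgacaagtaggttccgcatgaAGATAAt
Mcpt4 (chr14:56062315-56062560, minus strand): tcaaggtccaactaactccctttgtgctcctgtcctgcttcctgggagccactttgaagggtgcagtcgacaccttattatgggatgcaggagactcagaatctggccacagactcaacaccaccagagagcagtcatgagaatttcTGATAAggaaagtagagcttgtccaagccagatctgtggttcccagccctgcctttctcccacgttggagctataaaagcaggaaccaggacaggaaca
Cma1 (chr14:55944680-55944925, minus strand): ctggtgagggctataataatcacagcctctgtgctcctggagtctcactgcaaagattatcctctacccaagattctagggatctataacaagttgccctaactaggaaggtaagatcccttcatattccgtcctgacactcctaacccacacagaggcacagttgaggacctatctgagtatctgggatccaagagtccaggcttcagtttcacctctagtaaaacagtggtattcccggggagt
Ms4a2 held 3 matches, the nearest of which began 11 bases before the start. Cpa3 held 1 match at 46 bases, Mcpt4 held 1 at 103 bases, and Cma1 held none. Among the 7 genes with a window 4 held at least 1 match, the 4th being Fcer1a with a match at 92 bases, and 16.4% of all 32851 RefSeq windows of this length did. These are matches of letters and not measured binding.

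The libraries held 22967222 to 36162431 reads counted on genes (median 28922265), and the mast cell genes were counted 63 to 5865 times in a library. Levels are given as CPM, read counts scaled to a common library size with TMM factors, and, where different genes are compared, as RPKM, which also divides by exon length. On the RPKM scale 4 of the 5 granule proteases stood highest. The median over the 16 libraries was 77.4 RPKM for Mcpt4, 58.2 for Cma1, 49.3 for Cpa3 and 36.8 for Tpsb2, against a median of 4.33 over all 21526 genes tested. These 4 genes were above at least 92.1% of genes. The other 5 genes were an order lower, with median RPKM of 5.56 for Fcer1a, 5.41 for Ms4a2, 4.74 for Tpsab1, 3.69 for Kit and 1.70 for Hdc. Within the order, Tpsb2 was above Fcer1a in 16 of 16 libraries, Cpa3 above Tpsb2 in 15, Kit above Hdc in 15, Mcpt4 above Cma1 in 14, and Cma1 above Cpa3 and Tpsab1 above Kit in 13 each, whereas Fcer1a and Ms4a2, and Ms4a2 and Tpsab1, exchanged places, the gene with the higher median being higher in 9 of 16 libraries each. The places of Fcer1a, Ms4a2, Tpsab1 and Kit also depended on the length used, and Kit had a median of 6.28 RPKM when divided by its longest transcript instead of all its exons.

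Basophils share several of these genes. The 6 basophil markers, of which 4 passed the filter, summed to 13.6 to 21.9 CPM at 24 months and to 11.8 to 22.5 CPM at 30 months. The highest counts were those of Itga2, a gene of several cell types, with 189 to 570 counts in a library, and of Cd200r3 with 42 to 197, while the basophil proteases Mcpt8 and Prss34 were counted 0 to 7 and 0 to 2 times, and Il4 and Il13 13 to 38 and 1 to 12 times. Cd200r3, Mcpt8 and Prss34 are also on the lists of other mast cell genes examined below, so these lists overlap. The part of basophils in the values of the mast cell genes was not tested. The eosinophil markers summed to 0.126 to 0.499 CPM, and none of the 6 passed the filter. Exact copies of sequence between genes can also blur a level. No window of 50 bases, the read length, in the annotated transcripts of Tpsb2 or Tpsab1 occurred in the transcript of any other gene, while 5.48% of those of Mcpt4 and 5.38% of those of Cma1 did, for Mcpt4 in Cma2 and Mcpt9, and 2.1% of those of Ms4a2 did, in Ms4a4b. The values of these 3 genes carry that uncertainty.

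None of the 9 mast cell genes differed between 24 and 30 months at an adjusted p under 0.05 in the paired edgeR quasi-likelihood test. No other gene did either (0 of 21526 genes, 0%). The DESeq2 Wald test called 228 genes, of which 0 were mast cell genes. At an unadjusted p under 0.05, 1 of the 9 mast cell genes was higher at 30 months and 0 were lower, against 4.86% of all genes higher and 7.18% lower (12% in either direction). The 1 gene was Tpsab1. Without mouse 50, whose older clip stood apart, the 1 gene was Mcpt4 instead. The median log2 fold change was 0.13 over the mast cell genes and 0.0069 over all genes, and without mouse 50 it was -0.02 and 0.0046. In a piece of tissue, fewer mast cells and less RNA per mast cell cannot be told apart.

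Among the tryptase genes, Tpsab1 was at 6.16, 7.81 and 11.2 CPM (lowest, median and highest of 8 mice) at 24 months. It was at 6.66, 11.6 and 22.5 CPM at 30 months. It was higher at 30 months in 7 of 8 mice, as 6.49% of all genes were in 7 or 8 mice, with mouse 43 the exception, and 4 of the older values were above every younger one. The log2 fold change was 0.61 ± 0.23 (SE of the edgeR fit, 8 mice), with an unadjusted p of 0.0240 and an adjusted p of 0.347 in edgeR. The unadjusted p was above 0.05 without mouse 14, 29 or 50, with log2 fold changes of 0.55, 0.49 and 0.47 and unadjusted p of 0.0600, 0.0617 and 0.0598. Tpsb2, the more abundant tryptase gene by RPKM, was at 46.8, 57.8 and 66.1 CPM at 24 months and at 29.8, 66.7 and 132.9 CPM at 30 months. The younger values lay inside the range of the older ones, and the fold change of 0.13 ± 0.20 was not distinguishable from 0 (edgeR, adjusted p = 0.813). Without mouse 50 the sign of Tpsb2 turned to -0.02.

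The chymases pointed in opposite directions, and neither passed the test. Mcpt4, the mouse chymase closest in activity to human chymase, was at 74.5, 88.1 and 115.0 CPM at 24 months and at 43.8, 75.9 and 184.7 CPM at 30 months. It was lower at 30 months in 6 of 8 mice, and 4 older values were below every younger one, yet the highest value of all was also an older one. The log2 fold change was -0.23 ± 0.20 (SE; edgeR, adjusted p = 0.662). Cma1 was at 50.4, 56.4 and 74.8 CPM at 24 months and at 35.3, 68.2 and 171.1 CPM at 30 months. Here 6 of 8 mice had the higher value at 30 months (log2 fold change 0.24 ± 0.21; edgeR, adjusted p = 0.658). The sizes of both differences depended on single mice. Without mouse 50 Mcpt4 was at -0.42 (edgeR, unadjusted p = 0.00889, adjusted p = 0.290) and Cma1 at 0.05. Mcpt4 was at -0.13 without mouse 13 or mouse 43 and at -0.14 without mouse 29, and Cma1 was at 0.38 without mouse 13 and 0.36 without mouse 43.

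Cpa3, which trims peptides and venom toxins beside the chymases in the granule, was at 65.8, 72.2 and 97.1 CPM at 24 months and at 39.4, 78.4 and 159.8 CPM at 30 months. It was higher in 4 mice and lower in 4, and 3 older values stood above and 3 below the whole younger range. The log2 fold change of -0.06 ± 0.24 (edgeR, adjusted p = 0.936) had no stable sign, with estimates from -0.24 to 0.13 when single mice were left out.

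Of the IgE receptor chains, Fcer1a showed the widest range. It was at 3.61, 4.41 and 7.90 CPM at 24 months and at 2.35, 7.97 and 34.5 CPM at 30 months. The older values reached both below and above all younger ones, and Fcer1a was higher in 6 of 8 mice. In mouse 50 it was 9.04-fold higher at 30 months and in mouse 13 it was 3.15-fold lower. The log2 fold change was 0.68 ± 0.48 (SE; edgeR, adjusted p = 0.583), and it was 0.33 without mouse 50 and 1.01 without mouse 13. Ms4a2, which amplifies signals of the receptor, stayed within narrower limits, at 12.01, 14.3 and 19.4 CPM at 24 months and at 8.19, 15.2 and 26.5 CPM at 30 months. It was higher in 4 mice and lower in 4, and its log2 fold change was -0.04 ± 0.20 (edgeR, adjusted p = 0.941).

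Kit, the receptor for stem cell factor, was the steadiest of the genes, at 29.2, 34.3 and 37.3 CPM at 24 months and at 19.8, 30.9 and 44.9 CPM at 30 months. It was higher in 3 mice and lower in 5 (log2 fold change -0.11 ± 0.14; edgeR, adjusted p = 0.775), and it was at 0.02 without mouse 21. The melanocyte markers, whose cells also carry KIT, summed to 88.3 to 176.1 CPM at 24 months and to 39.4 to 116.9 CPM at 30 months and were lower in 7 of 8 mice. Their part in the Kit values was not tested. Hdc was at 8.62, 10.5 and 13.4 CPM at 24 months and at 9.23, 11.6 and 36.0 CPM at 30 months. Its medians were close at both ages, and only mouse 29, with 22.1 CPM, and mouse 50, with 36.0 CPM, were above the younger range (log2 fold change 0.34 ± 0.25; edgeR, adjusted p = 0.597). Without mouse 50 the fold change was 0.11.

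**Figure D1:**
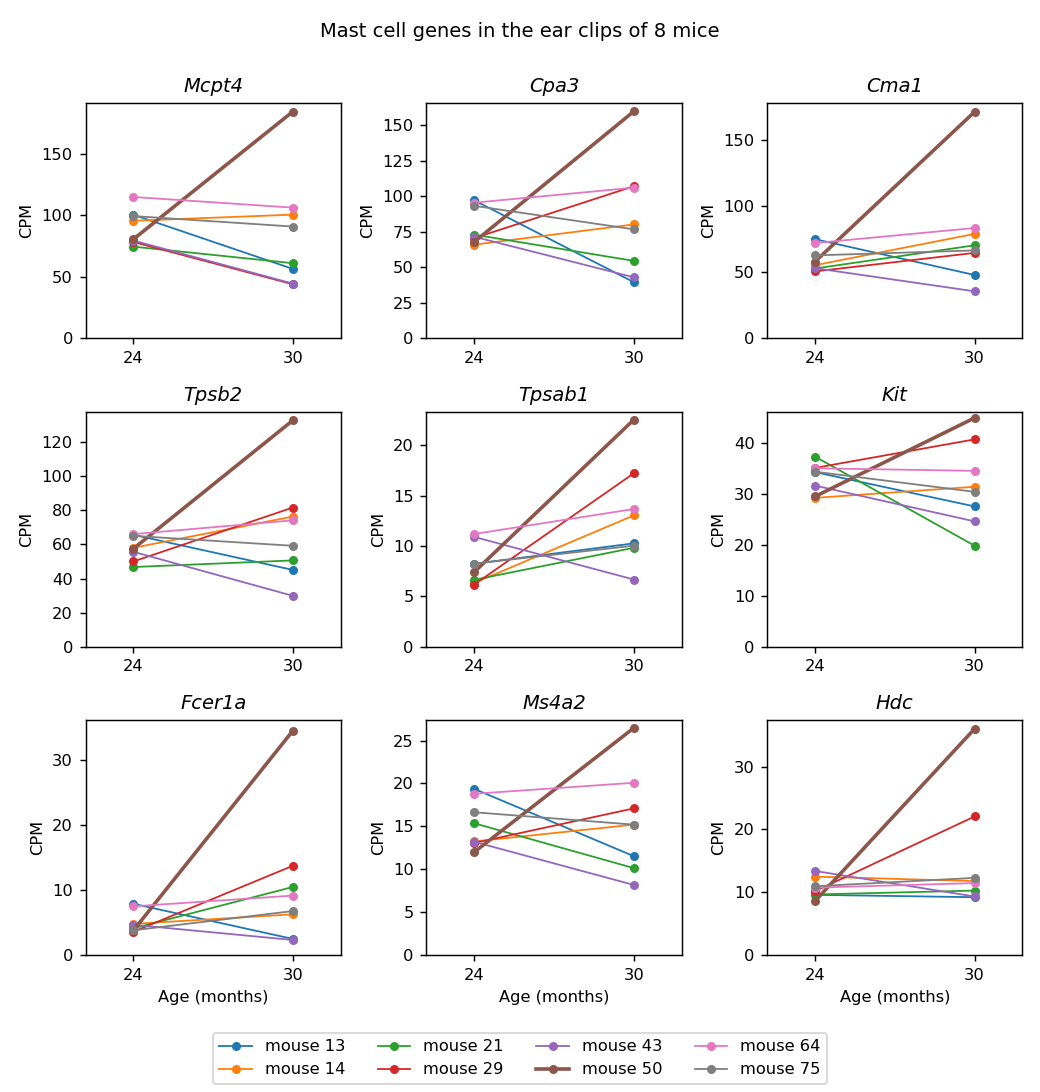
CPM of the 9 mast cell genes (vertical axes, linear and from 0) at 24 and 30 months, with 1 line per mouse. Lines run in both directions for every gene, and mouse 50 (thick line) has the highest value at 30 months for all 9 genes, such as 184.7 CPM for Mcpt4.

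The direction differed between mice. In mouse 50 all 9 genes were higher at 30 months, and their summed level went from 324.9 to 812.8 CPM, a ratio of 2.50. In mouse 43 all 9 were lower, with sums of 333.1 and 203.4 CPM, and in mouse 13 the sums were 417.4 and 249.4 CPM, with 8 genes lower and Tpsab1 alone higher. Mouse 14 and mouse 29 each had 8 genes higher. The single gene that was lower in mouse 29 was Mcpt4, at 78.3 CPM in the first clip and 43.8 CPM in the second, while Cpa3 in the same clips was at 70.4 and 107.0 CPM. Mice 64, 75 and 21 changed least in sum, with ratios of 1.06, 0.933 and 0.928. Across the 8 mice the sum was higher at 30 months in 4 and lower in 4.

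**Figure D2:**
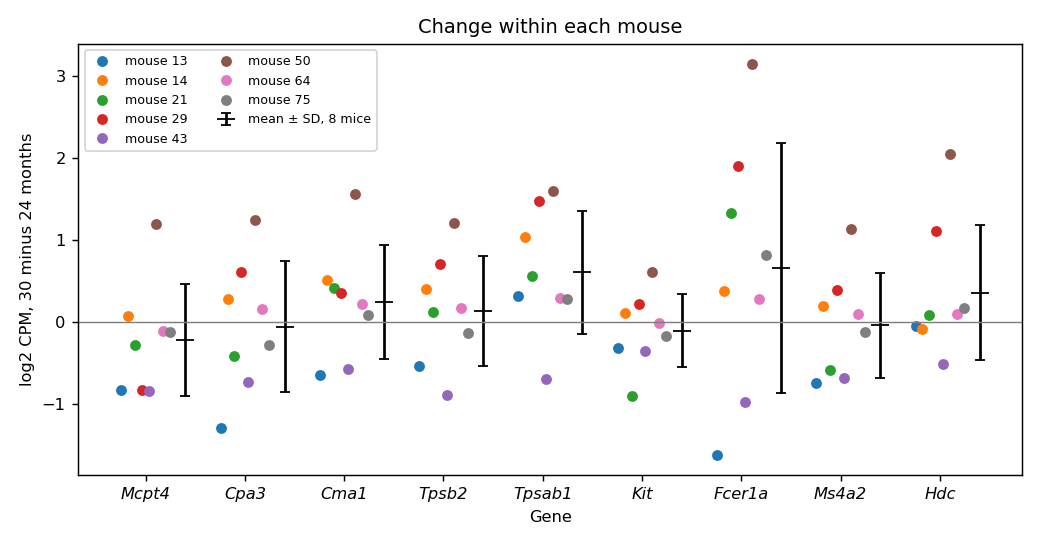
Change in log2 CPM from 24 to 30 months within each mouse (points) for the 9 genes, with the mean ± SD of 8 mice (bars). The mean of Tpsab1 is 0.61 and that of Cpa3 is -0.06, and the points of mouse 50 are the highest for every gene.

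The library of mouse 50 at 30 months also stood apart in marker sums of other cells of the dermis. Its fibroblast markers summed to 10650 CPM against 3428 at 24 months, its macrophage markers to 1328 against 429.2, and its T cell markers to 207.1 against 41.1. Over all mice the fibroblast sum ranged from 3278 to 6116 CPM at 24 months and was lower at 30 months in the other 7 mice. In mouse 13, where the mast cell sum was lower, the macrophage sum was at 659.1 and 367.4 CPM and the fibroblast sum at 4597 and 2745 CPM. In mouse 43 the macrophage sum was 457.6 and 594.4 CPM, in the direction opposite to the mast cell genes. The keratinocyte markers of mouse 50 summed to 23740 and 17700 CPM. The part of these cells in the mast cell values was not tested.

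Over all mice, no marker gene of these or other cell types passed at an adjusted p under 0.05 in edgeR, and DESeq2 called Emcn (endothelial), Krt1 (keratinocyte) and Col2a1 (cartilage). At an unadjusted p under 0.05, which 4.86% of all genes passed as higher and 7.18% as lower, 4 of 6 endothelial markers were higher at 30 months, with sums of 94.6 to 145.6 CPM at 24 months and 102.3 to 290.5 CPM at 30 months, higher in 6 of 8 mice. By the same measure, 3 of the 5 cartilage markers tested were lower, 1 keratinocyte marker of 6 was higher and 2 were lower, 1 of 7 dendritic and Langerhans cell markers was higher and 1 lower, and 1 of 8 melanocyte markers was lower. None of 8 macrophage, 8 T cell, 6 fibroblast, 6 skeletal muscle or 4 basophil markers tested had an unadjusted p under 0.05. The skeletal muscle sum varied widely between clips, from 665.1 to 7138 CPM at 24 months and from 961.2 to 6299 CPM at 30 months. In mouse 13 it was 703.7 and then 6299 CPM, and in mouse 43 it was 7138 and then 961.2 CPM, while the mast cell sum was lower in both.

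The spread between mice was wider at 30 months for each of the 9 genes. The SD of log2 CPM over 8 mice was 0.24 at 24 months and 0.70 at 30 months for Cpa3, 0.19 and 0.65 for Tpsb2, and 0.44 and 1.26 for Fcer1a. For Tpsb2 the highest and lowest mouse differed 1.41-fold at 24 months and 4.46-fold at 30 months, and for Fcer1a 2.19-fold and 14.7-fold. Without mouse 50 the values at 30 months were 2.74-fold and 5.87-fold. The ratio of the SD at 30 months to that at 24 months ran from 1.64 (Tpsab1) to 3.496 (Tpsb2), with a median of 2.999. A wider spread at 30 months was common in these libraries, with a ratio above 1 in 78% of all genes and a median ratio of 1.41. Without mouse 50 the median ratio was 2.34 over the mast cell genes and 1.33 over all genes, and it was above 1 for 9 of 9 and 73.4% of genes. These ratios are a description, and the difference in spread was not tested.

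**Figure D3:**
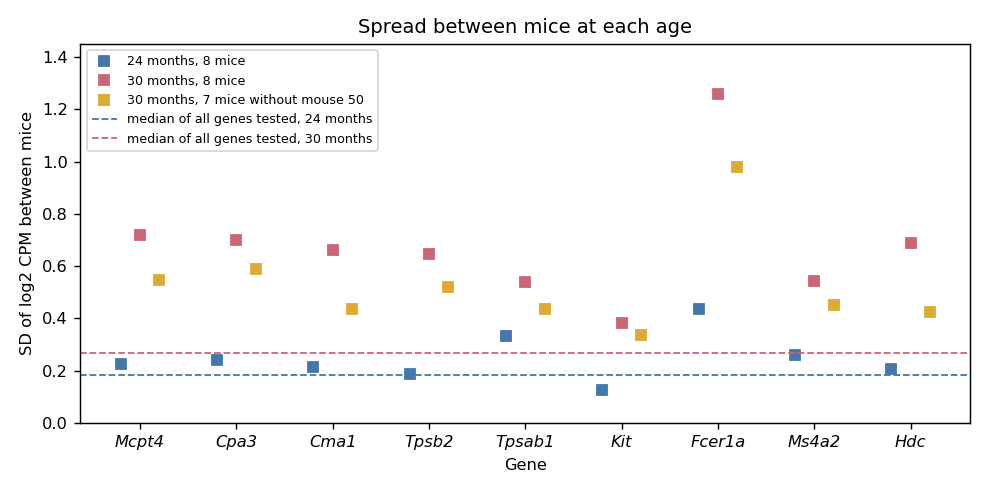
SD of log2 CPM between mice at 24 months, at 30 months, and at 30 months without mouse 50 (squares), with the medians over all genes tested as dashed lines (0.18 and 0.27). The 30-month squares lie above the 24-month squares for all 9 genes, with or without mouse 50.

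No relation of a mouse's level at 24 months with its level at 30 months passed the test. Over the 8 mice the Spearman correlation of the 2 ages ran from -0.69 for Fcer1a to 0.45 for Mcpt4, and Pearson's r from -0.57 for Hdc to 0.32 for Mcpt4. The exact permutation test gave unadjusted p from 0.0694 to 0.935 for rho, and none of the 9 relations passed after adjustment (smallest adjusted p 0.625 for rho and 0.651 for r).

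The change of each gene from 24 to 30 months was compared with that of Cpa3 over the 8 mice, and Benjamini-Hochberg values were computed over the 8 relations. The change of Ms4a2 followed the same order of mice as that of Cpa3 (rho 1, r 0.96, exact permutation p = 4.96e-05 and adjusted p = 0.000397 for rho). Tpsb2 had a rho of 0.95 (r 0.93, exact permutation, adjusted p = 0.00456) and Kit a rho of 0.90 (r 0.78, exact permutation, adjusted p = 0.0122). Cma1 (rho 0.81, r 0.91) and Fcer1a (rho 0.79, r 0.88) also passed, with adjusted p of 0.0436 and 0.0447 in the exact permutation test. Tpsab1 (rho 0.74, adjusted p = 0.0611), Hdc (rho 0.69, adjusted p = 0.0793) and Mcpt4 (rho 0.60, adjusted p = 0.132) did not pass for rho in the exact permutation test. In the same test all 8 relations passed for Pearson's r, with adjusted p up to 0.0416. The share of all genes that would pass against Cpa3 was not computed, so the counts of relations that passed have no background. These relations are therefore not shown to be particular to mast cell genes. The 10 genes outside the list with the most similar levels over the 16 libraries also changed with the 9 genes. The rho of their change with the mean standardized change of the 9 ran from 0.71 for Rnf128 to 0.95 for Il1rl1. It was 0.93 for Mrgprb1, Klhl6 and Ostf1. These genes were chosen by likeness in the same libraries, which makes such values likely. They do not bear on whether the relations with Cpa3 are particular to mast cell genes.

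Mouse 50 and mouse 13 had the most extreme changes of Cpa3, at 1.24 and -1.30 log2 units. Without both, 6 mice remain, and 3 relations passed for rho after adjustment in the exact permutation test, those of Ms4a2 (rho 1, adjusted p = 0.0222), Tpsb2 and Kit (rho 0.94 and adjusted p = 0.0444 each). Cma1 and Fcer1a no longer passed, with rho of 0.54 and 0.49 (exact permutation, adjusted p = 0.396 and 0.406). Their calls were also lost without other single mice, such as mouse 43 (exact permutation, adjusted p = 0.141 and 0.146), and 6 mice leave less power. Tpsab1 had a rho of 0.83, Hdc of 0.60 and Mcpt4 of 0.43 (exact permutation, adjusted p = 0.117, 0.387 and 0.419). Pearson's r without both mice was 0.96 for Ms4a2, 0.91 for Tpsb2, 0.88 for Tpsab1, 0.77 for Kit, 0.76 for Hdc, 0.70 for Cma1, 0.60 for Fcer1a and 0.14 for Mcpt4. By rho, 2 of the 8 relations passed after adjustment without mouse 50, those of Ms4a2 and Tpsb2, and 3 without mouse 43. The call of Kit was lost without mouse 50 alone (rho 0.86, exact permutation, adjusted p = 0.0635). The relation of Mcpt4 depended on mouse 29, without which rho was 0.96 (exact permutation p = 0.00278, adjusted p = 0.0111). The genes of a pair were read from the same libraries and share their scaling.

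**Figure D4:**
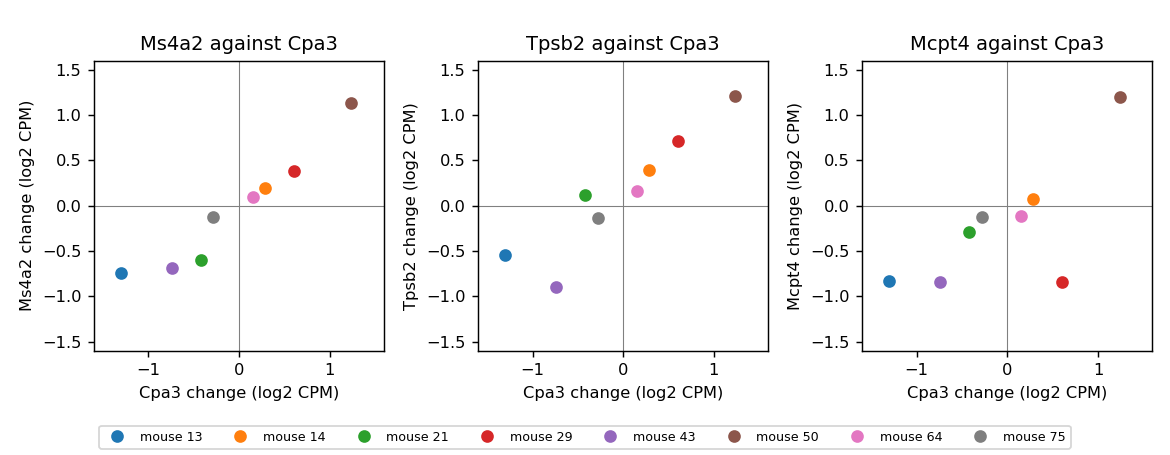
Change in log2 CPM from 24 to 30 months of Ms4a2, Tpsb2 and Mcpt4 (vertical axes) against that of Cpa3 (horizontal axes), with 1 point per mouse. Ms4a2 and Tpsb2 follow Cpa3 (rho 1 and 0.95), while for Mcpt4 (rho 0.60) mouse 29 lies apart at -0.84 with Cpa3 at 0.60.

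The mast cell genes were also compared with each other by the ratio of 2 genes in the same clip. This comparison was added after the values had been seen, and all 36 pairs of the 9 genes were computed. In 4 pairs the ratio moved in the same direction in 8 of 8 mice. The sign-flip test over the mice is exact and cannot go below 0.00781 in this design, and these 4 pairs reached that value. After adjustment over 36 pairs it became 0.0703, so that 0 pairs passed, while 13 had an unadjusted p under 0.05. In 3 of the 4 pairs the gene was Tpsab1, and its ratio to the other gene was higher at 30 months. Against Cpa3 the CPM ratio of Tpsab1 was 0.0854 to 0.153 at 24 months and 0.129 to 0.262 at 30 months, a mean change of 0.66 ± 0.51 log2 units (SD, n = 8). Among all genes, 0.181% had a ratio to Cpa3 that was higher in 8 of 8 mice. Against the other tryptase gene, Tpsb2, the ratio was 0.110 to 0.197 and then 0.170 to 0.229, a mean change of 0.48 ± 0.26, which 0.116% of all genes matched in direction in every mouse. Against Mcpt4 the mean change was 0.83 ± 0.69, and 0.72% of all genes were higher against Mcpt4 in every mouse. The pairs were picked for moving 1 way in every mouse, so these shares do not measure how rare such a result is. A share among genes whose levels follow the mast cell genes was not computed. In mouse 43, where the level of Tpsab1 itself was lower, the ratio to Cpa3 went only from 0.153 to 0.157, a change of 0.034 log2 units that rests on 347 and 179 counts of Tpsab1, and the count of 8 of 8 mice for this pair depends on it.

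The 4th pair was formed by the chymases. The CPM ratio of Mcpt4 to Cma1 was 1.34 to 1.74 at 24 months and 0.680 to 1.37 at 30 months, with a median of 1.53 and then 1.22, and it was lower in all 8 mice. In 7 mice the older ratio was below every younger one. The mean change was -0.46 ± 0.34 log2 units (SD, n = 8), and -0.36 without mouse 29, the mouse with the largest change. A lower ratio to Cma1 in 8 of 8 mice was found for 0.488% of all genes, but this pair too was picked for its direction in every mouse. Mouse 50, which had the highest level of both chymases, followed the same direction, with ratios of 1.39 and 1.08.

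**Figure D5:**
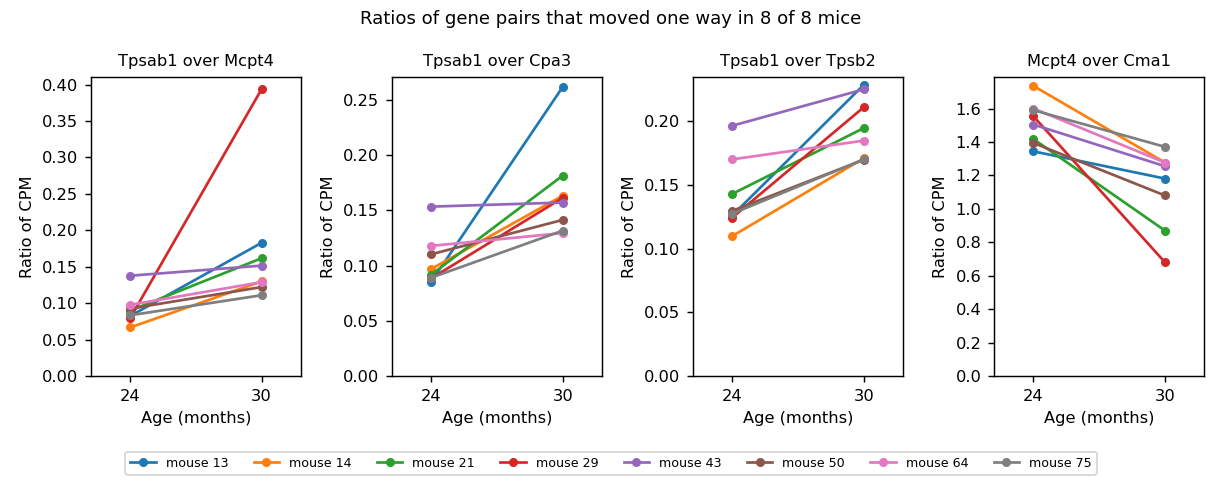
Ratio of CPM of 2 genes in the same clip (vertical axes, linear and from 0) at 24 and 30 months, with 1 line per mouse, for the 4 of 36 pairs that moved in 1 direction in 8 of 8 mice. The ratio of Mcpt4 to Cma1 has a median of 1.53 at 24 months and 1.22 at 30 months.

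The genes whose level was most like the mean of the 9 mast cell genes over the 16 libraries, by Spearman correlation and among all 21526 genes, were led by 4 genes, of which 3 were themselves on the list. Cpa3 ranked 1st (rho 0.95, against the mean of the other 8), Tpsb2 ranked 3 and Ms4a2 ranked 4. The 2nd place was held by Il1rl1 (rho 0.94), the receptor for IL-33 and a known mast cell gene, which was at 13.95 ± 1.57 CPM at 24 months and 16.3 ± 6.72 CPM at 30 months (SD, n = 8). Mrgprb1, of a receptor family expressed in skin mast cells, and Klhl6 followed, each with rho 0.88, then Gm11427, Rbm41, Rnf128, Ostf1, Ccl6, Adora2a and Nceh1, with rho from 0.85 to 0.88. Of the listed genes, Cma1 ranked 46, Fcer1a 100, Tpsab1 199, Mcpt4 384, Hdc 430 and Kit 637, and 1% of genes had a rho above 0.68. These correlations are a description, since the libraries of a mouse are not independent and share depth and tissue make-up. None of the 10 genes passed the test between the ages (edgeR, adjusted p from 0.562 to 0.962).

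Other genes of mast cell function were examined in 6 lists, and none of their genes passed at an adjusted p under 0.05 in edgeR or DESeq2. Beside each list the number with an unadjusted p under 0.05 is given, to be read against the 4.86% and 7.18% of all genes. Of the 16 genes of IgE receptor signalling, 2 were higher and 0 lower. Gab2, an adaptor downstream of the receptor, had a log2 fold change of 0.33 ± 0.11 (edgeR, adjusted p = 0.316). It was higher in 8 of 8 mice, as 1.08% of all genes were, and it was named for its small p. The phospholipase gene Plcg2 had 0.48 ± 0.17 (edgeR, adjusted p = 0.335). Both are used by many immune cells, and over the 16 libraries their levels had a rho of 0.26 and 0.20 with the mast cell mean. Fcer1g, the receptor's gamma chain, was at 29.6 ± 5.57 CPM at 24 months and 43.8 ± 34.8 CPM at 30 months (SD, n = 8; edgeR, adjusted p = 0.611), with a log2 fold change of 0.33 that was 0.083 without mouse 50 and 0.50 without mouse 13, and the granule fusion gene Vamp8 was at 131.3 ± 11.9 and 142.5 ± 18.8 CPM (adjusted p = 0.627).

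Of 11 genes of the KIT axis and lineage factors, 1 was lower and 0 were higher. It was Cbl, a ubiquitin ligase that removes activated receptors, with a log2 fold change of -0.42 ± 0.13 (edgeR, adjusted p = 0.289). Over the 16 libraries the level of Cbl had a rho of 0.09 with the mast cell mean. Gata2, a transcription factor that mast cells need, was at 17.1 ± 2.39 CPM and then 22.2 ± 6.95 CPM (SD, n = 8; edgeR, adjusted p = 0.437) and had a rho of 0.77 with the mast cell mean. Kitl, which encodes the ligand of KIT, was at 51.1 ± 4.36 and 53.3 ± 8.81 CPM, and Lmo4 and Ptpn6, which stood highest in the list on the RPKM scale, had log2 fold changes of 0.09 and -0.11. The rho of Lmo4 and Ptpn6 with the mast cell mean was -0.49 and 0.06.

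Of 11 enzymes of amine and lipid mediators, 2 were lower and 0 higher. They were Pla2g4a, the phospholipase that frees arachidonic acid (log2 fold change -0.33 ± 0.13; edgeR, adjusted p = 0.356), and Maob, which degrades amines (-0.33 ± 0.13; adjusted p = 0.366). The unadjusted p was above 0.05 for Pla2g4a without mouse 13 or 75 and for Maob without mouse 13, 21, 29 or 50. Over the 16 libraries the levels of Pla2g4a and Maob had a rho of 0.03 and -0.16 with the mast cell mean. Ptgs1, a cyclooxygenase gene, was at 208.8 ± 26.0 and 192.0 ± 22.1 CPM (adjusted p = 0.578). Of 11 genes of granule proteoglycan and heparin synthesis, 2 were lower and 0 higher, namely Rab27b, which acts in granule transport (-0.33 ± 0.11; edgeR, adjusted p = 0.316), and Glce, an epimerase of heparin synthesis (-0.33 ± 0.13; adjusted p = 0.355), whose unadjusted p was above 0.05 without mouse 13, 21, 29 or 50. The sulfotransferase genes Ndst1 and Ndst2 had log2 fold changes of -0.21 and 0.15 (adjusted p = 0.434 and 0.509). The rho of Rab27b, Glce, Ndst1 and Ndst2 with the mast cell mean was 0.24, -0.39, -0.34 and 0.20. The part of mast cells in the values of these lists was not tested.

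Among 11 further granule proteases, of which 8 were tested, and among 17 surface receptors, of which 14 were tested, none had an unadjusted p under 0.05 in edgeR. Ctsg, a protease of mast cells and neutrophils, had a log2 fold change of -0.75 ± 0.35 (SE; edgeR, adjusted p = 0.434). Gzmb, shared with cytotoxic lymphocytes, was at 0.766 ± 0.259 and 4.93 ± 10.5 CPM (adjusted p = 0.479), and the lysosomal Ctss and Ctsd had log2 fold changes of 0.50 and 0.10. Without mouse 50 the log2 fold change of Gzmb was 0.60 in place of 1.14 and that of Ctss 0.21, and without the pairing by mouse that of Gzmb was 2.68. Mrgprb2, the receptor through which peptides and drugs activate skin mast cells, was at 18.5 ± 4.16 and 17.4 ± 5.22 CPM (edgeR, adjusted p = 0.833). P2rx7, a receptor for extracellular ATP, was at 44.5 ± 8.75 and 48.6 ± 14.1 CPM, Enpp3 at 1.37 ± 0.217 and 1.64 ± 0.602 CPM and Cysltr2 at 0.280 ± 0.0864 and 0.674 ± 0.805 CPM (adjusted p = 0.767, 0.631 and 0.5259). The log2 fold change of Cysltr2 was 0.83, and 0.36 without mouse 50, and that of Enpp3 was 0.22, and 0.071 without mouse 50.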

How the data were processed

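Ear skin of 8 mice was sequenced at 2 ages, and the pairing of libraries by animal comes from the numbers in the sample titles and the animal IDs in the paper's sample sheet. The deposited values are raw read counts per gene, which the authors made by aligning 50-base single-end reads with TopHat to GRCm38 and counting them per gene. The submitters' processing notes name CASAVA 1.8.4, TopHat2 2.1.0 and HTSeq 0.6.1p1. The strand setting is not given in the sources used here. The table ends with 5 summary lines, which name no gene. They took up 18.7% to 21.1% of reads and were left out throughout. Of 45706 gene rows, 45143 were annotated in GENCODE M21.

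The listed genes and all other lists were chosen with earlier results of these data known. Further genes are named by rule: from each of 6 mast cell lists the 2 highest by mean RPKM and the 2 with the smallest p, and the 10 genes most like the mast cell mean. Kitl, the basophil markers, Emcn, Krt1 and Col2a1 were named after their values were seen.

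The test was the edgeR 4.0.16 quasi-likelihood test under R 4.3.3 (TMM, filterByExpr, mouse as block), with Benjamini-Hochberg adjustment over 21526 genes and a threshold of 0.05. Standard errors of fold changes were derived from the F statistic of this test, which borrows information on spread from other genes. Changes in single mice are differences of log2 CPM with a prior count of 2. As a check of the pairing, deviations from the age means had a median correlation of -0.02 for libraries of 1 mouse and -0.005 for libraries of different mice. The values for 1 mouse ran from -0.43 to 0.32. By this measure clips of 1 mouse were no more alike than clips of different mice, so the check gave the pairing no support. Correlations were tested with two-sided exact permutation tests over 40320 orders of the mice, and ratios with a two-sided exact sign-flip test over 256 sign patterns, using scipy 1.17.1, numpy 2.4.6 and pandas 2.3.3 under Python 3.11.15. On counts simulated for 21526 genes, 200 of them changed by 1.5 log2 units, all 200 were called together with 7 unchanged genes. Smaller changes were not simulated. The simulated counts had no difference in level between mice and took their spread from the trend over all genes. Only well-counted genes were changed. The recovery is therefore no measure of power for the changes seen here. DESeq2 1.42.0, other scalings and filters, and leaving out each mouse were run as alternatives. Counting error is the only error that depth sets. The edgeR p-values judge the mean change within mice against the spread of changes over these 8 mice, moderated over all genes. That spread also holds differences between clips.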

Additional observations from a re-analysis of the deposited data

Results flagged for a closer look

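In 4 of 27 groups of 8 values (the 9 genes at 24 months, at 30 months, and their changes), 1 mouse lay far from the others by Dixon's test. Chance gives about 1.35 for independent groups of normally distributed values. These groups share clips, their genes changed together, and levels were on the CPM scale. The numbers are therefore no test of an excess. The mouse was mouse 50 each time, as the highest. Mcpt4 was at 184.7 CPM in its 30-month clip and had a log2 change of 1.20. Cma1 was at 171.1 CPM and Fcer1a at 34.5 CPM in the same clip. In that library the T cell, fibroblast and macrophage marker sums were 5.03, 3.11 and 3.10 times those of the 24-month clip. Their part in these values was not tested.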

How the results depend on the processing

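None of the 9 mast cell genes passed the adjusted threshold in edgeR or in any of 15 alternatives, at other scalings and filters, in DESeq2, with exact age or without any 1 mouse. The numbers of all genes called were 228 by the DESeq2 Wald test and 3 with no replicate block, where the other alternatives gave 0. The fit without the pairing by mouse called 2 mast cell genes at an unadjusted p under 0.05 in place of 1, Fcer1a at 1.09 beside Tpsab1 at 0.66, and turned Cpa3 to 0.071, Ms4a2 to 0.027 and Rbm41 to 0.0063. Without 1 mouse that number ran from 0 (mouse 14 or 29) to 2 (mouse 13). Log2 fold changes whose sign turned without 1 mouse ranged from -0.24 to 0.13 for Cpa3, -0.21 to 0.071 for Ms4a2, -0.024 to 0.28 for Tpsb2, -0.21 to 0.015 for Kit, -0.20 to 0.074 for Mrgprb2, -0.29 to 0.0028 for Mrgprb1, -0.017 to 0.29 for Il1rl1, -0.011 to 0.42 for Adora2a and -0.073 to 0.061 for Rbm41. The turns came without mouse 13, 21 or 43 for Cpa3 and Ms4a2, without mouse 50 for Tpsb2, Il1rl1 and Adora2a, without mouse 21 for Kit, mouse 43 for Mrgprb2 and mouse 13 for Mrgprb1. The changes of 5 genes were related to that of Cpa3 after adjustment by rho, 3 without the 2 farthest mice, and 2 to 6 without 1 mouse. The share of all genes that would be so related was not computed. Pairs whose ratio moved 1 way in all mice numbered 4 to 7 without 1 mouse, and 0 pairs passed the adjusted threshold in any alternative, though 7 mice allow no unadjusted exact p below 0.0156. Of the 10 genes most like the mast cell mean, 4 stayed among the first 10 by Pearson correlation and 1 by the changes over 8 mice, and 5 of 9 genes kept their place in the order of levels with the longest transcript as length. The causes were not tested. The standard errors of the 9 genes in the edgeR fit were 0.14 to 0.48 log2 units.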
